A study of Mus musculus with 4 samples.

Results

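The 32 genes described here encode the enzymes of sterol synthesis (16 genes), the enzymes of fatty acid synthesis, elongation and desaturation (11 genes), and the regulators of both with 1 sterol carrier (5 genes). They were picked by symbol from the 28440 rows of the count table, and all 32 were found and passed the filter on low counts that left 15808 genes to test. The RNA came from 4 tumours of the mammary gland, here called tumours 1 to 4, and all have the genotype MMTV-R26Met. The mouse models triple-negative breast cancer: raised Met, a receptor tyrosine kinase, is directed to mammary epithelium by the MMTV promoter. There is neither normal gland nor any treated or untreated counterpart, so each tumour can be set only against the other 3. Age, treatment and the number of mice behind the tumours are not in the labels. Library totals ran from 35220504 to 42809015 counts.

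Sterols and fatty acids are both built from acetyl-CoA in the cytosol. The sterol arm runs through mevalonate and squalene to lanosterol and cholesterol, and the fatty acid arm makes palmitate, which is then lengthened and desaturated. Both arms are switched on by the SREBP transcription factors, which the carrier Scap escorts out of the endoplasmic reticulum when sterols are low and which the Insig proteins hold back when sterols are high. SREBP-2, from Srebf2, acts mainly on sterol genes, and SREBP-1c, from Srebf1, mainly on fatty acid genes. The lactating mammary gland is one of the most active sites of fatty acid synthesis in the mouse.

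Expression is given as CPM, a count scaled to the size of its library after TMM normalization, and the spread of a gene between tumours as the highest tumour over the lowest. Per kb of exon, the desaturase Scd1 was the most abundant member with a mean of 343 CPM per kb. Next came its paralog Scd2 with 181 CPM per kb, Srebf1 with 123 CPM per kb and Acly with 117 CPM per kb. In the sterol arm the highest level per kb was that of Fdps with 55.5 CPM per kb, and then that of Sqle with 36.0 CPM per kb. The lowest members were Hsd17b7 with 4.24 and Mvk with 4.81 CPM per kb. Counts were ample throughout. The smallest was 297 for Mvk in tumour 1, with an exact 95% Poisson interval of 264 to 333 that covers counting error only.

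**Figure D1:**
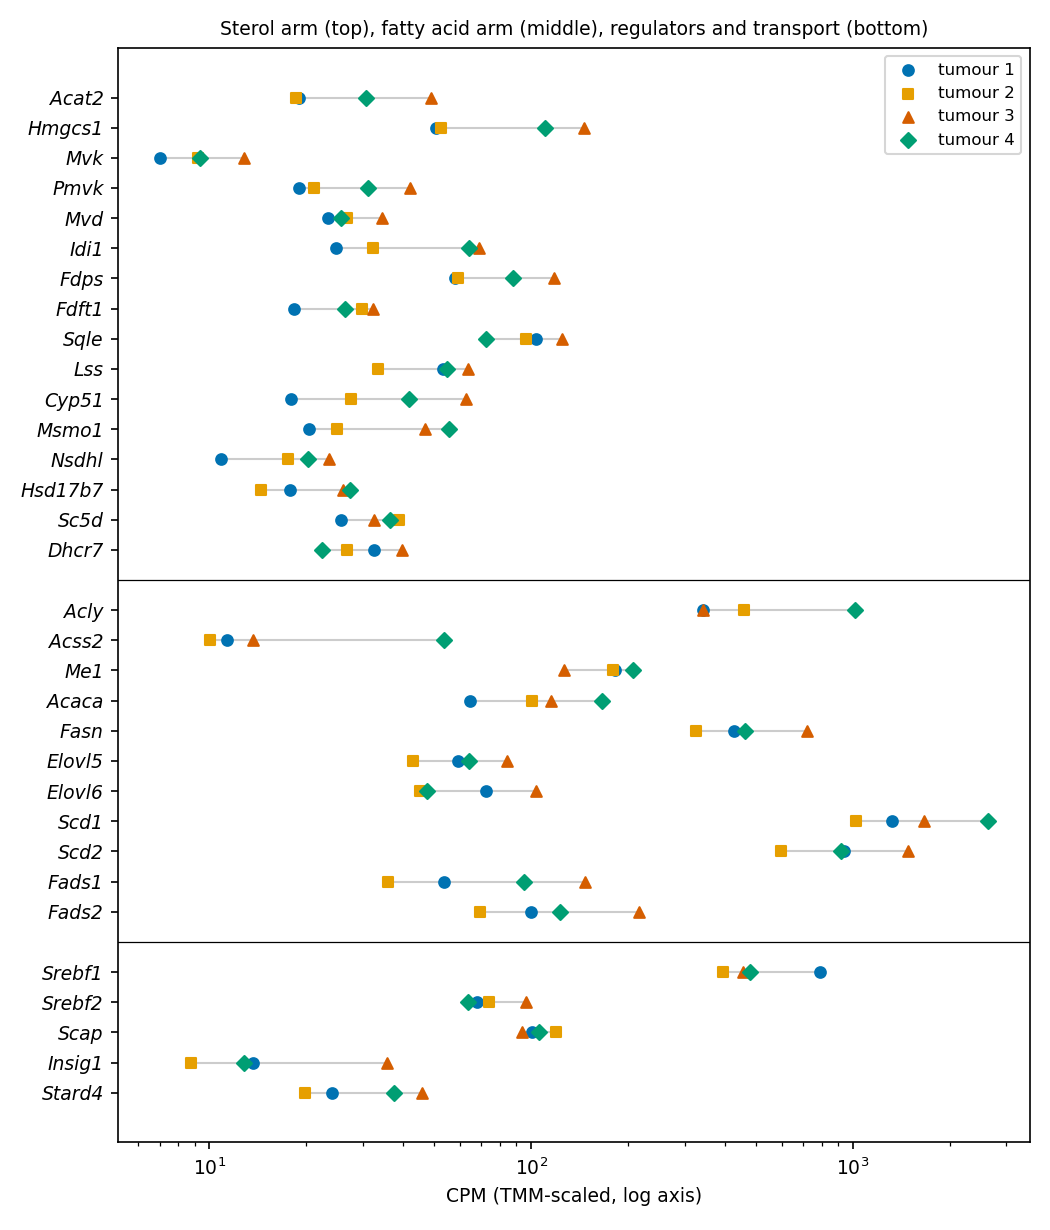
CPM of each of the 32 genes (log axis) in tumours 1 to 4, with a grey line from the lowest to the highest tumour; the sterol arm is at the top, the fatty acid arm in the middle and the regulators with Stard4 at the bottom. Most sterol genes have tumour 3 at the right end of the line, whereas Acly, Acss2, Me1, Acaca and Scd1 have tumour 4 there.

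The sterol arm was highest in tumour 3. Of its 16 enzymes 13 had their highest level in tumour 3, against 29.7% of all genes tested, and all 16 were higher in tumour 3 than in tumour 1, against 52.0% of all genes tested. Of the 16, 11 were lowest in tumour 1, against 24.8% of all genes tested, and for 11 of the 16 tumours 3 and 4 both lay above tumours 1 and 2, against 15.9% of all genes tested. Tumour 3 was above tumour 2 for 15 of 16 (50.1% of all genes tested) and tumour 4 above tumour 1 for 14 of 16 (51.2% of all genes tested). Tumour 4 was above tumour 3 for only 3 of 16, against 49.5% of all genes tested. The median sterol gene was 1.92-fold higher in tumour 3 than in tumour 1, where the median of all genes tested was 1.02-fold. These counts describe the tumours and carry no test. No single tumour has a replicate of its own, and in bulk RNA more cells of a type cannot be told from more RNA per cell.

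Hmgcs1, the cytosolic HMG-CoA synthase that starts the mevalonate path, had 50.6, 52.4, 146.3 and 110.3 CPM in tumours 1 to 4, and part of its exon bases overlap a gene on the opposite strand. Its level in tumour 3 was 2.89-fold that in tumour 1, and the pairs of tumours 1 and 2 and of tumours 3 and 4 did not overlap. Idi1, the isomerase that makes the activated isoprene unit, followed the same split with 24.7, 32.2, 68.6 and 64.0 CPM. Fdps, which joins these units into farnesyl diphosphate, had 58.1, 59.1, 117.8 and 87.6 CPM. In GENCODE M21 77.4% of its exon bases also belong to Gm43738, a gene on the same strand. This may affect its counts, but the annotation used for counting was not given. Acat2, which condenses acetyl-CoA at the head of the path and has a close copy in Acat3, had 19.0, 18.6, 49.0 and 30.7 CPM. The kinase Pmvk, at 19.0, 21.2, 42.1 and 31.2 CPM, also had tumours 3 and 4 on top. The other kinase Mvk and the decarboxylase Mvd were flatter, with a spread of 1.83-fold and 1.47-fold, although both were highest in tumour 3.

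After farnesyl diphosphate the enzymes were less alike. Cyp51, the lanosterol demethylase (chromosome 5, 4080674 to 4104697, GRCm38), had the widest spread of the sterol arm at 3.50-fold, with 17.99, 27.5, 62.9 and 41.7 CPM in tumours 1 to 4. Msmo1, which removes the methyl groups at carbon 4 together with Nsdhl and Hsd17b7, had 20.4, 24.99, 46.7 and 55.4 CPM and was highest in tumour 4. Nsdhl and Hsd17b7 had a spread of 2.16-fold and 1.89-fold, again with tumours 3 and 4 above the others. Sqle, the squalene epoxidase, had a different order with 103.7, 96.4, 124.9 and 72.3 CPM, and was lowest in tumour 4. Of the 16 sterol enzymes 2 were lowest there, against 27.8% of all genes tested. Dhcr7, which makes cholesterol from 7-dehydrocholesterol, was the other one, with 22.4 CPM in tumour 4 and 39.7 CPM in tumour 3, its highest. Lss, which closes squalene epoxide into lanosterol, was lowest in tumour 2, at 33.4 CPM, and had 53.1 to 63.8 CPM elsewhere. Fdft1, the squalene synthase, was lowest in tumour 1 at 18.3 CPM and had 26.4 to 32.2 CPM elsewhere. It shares 20.9% of its exon bases with Ctsb on the opposite strand, and reads of the pair cannot be told apart without strand. Sc5d, the desaturase that acts before Dhcr7, was the 1 sterol enzyme highest in tumour 2, with 25.6, 38.8, 32.5 and 36.4 CPM.

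**Figure D2:**
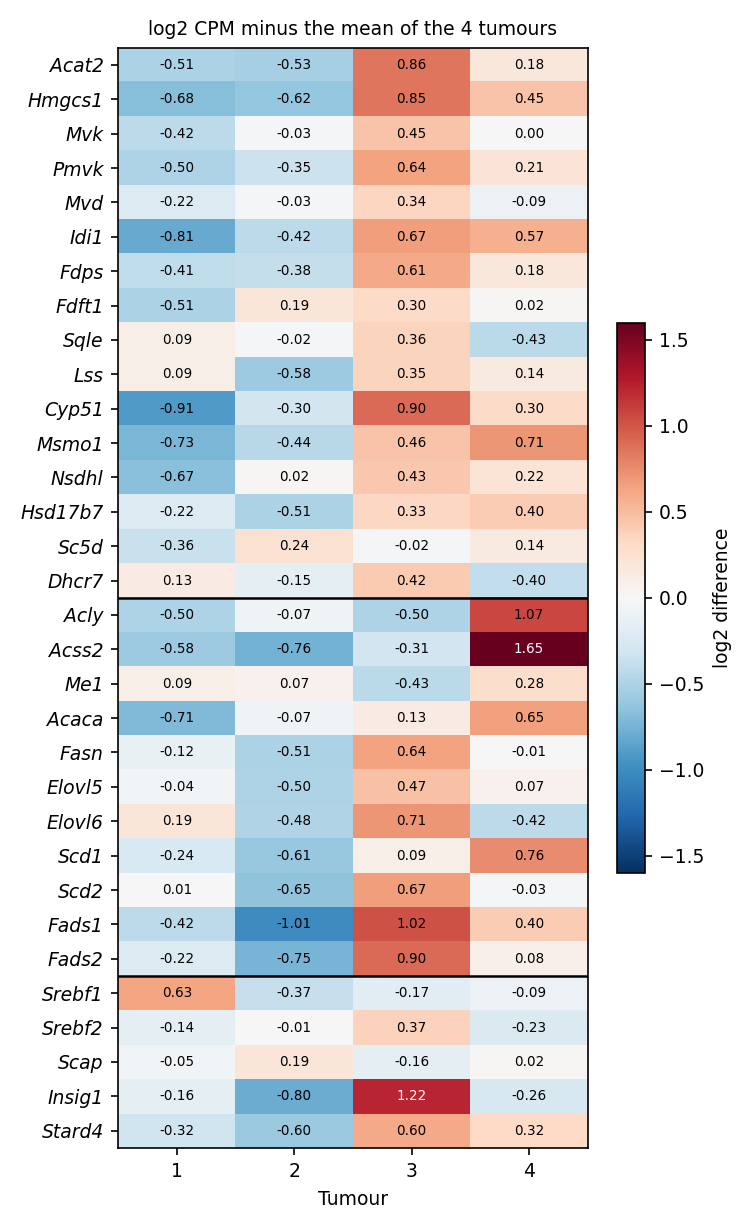
log2 CPM of each gene minus its mean over the 4 tumours (columns), with the value in each cell; black lines part the sterol arm, the fatty acid arm and the regulators with Stard4. The column of tumour 3 is above 0 for 15 of the 16 sterol enzymes, the exception being Sc5d at -0.02, and the highest value is 1.65 for Acss2 in tumour 4.

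The fatty acid arm was high in tumours 3 and 4 and divided between them by step. Of its 11 enzymes 6 were highest in tumour 3 and 5 in tumour 4, against 29.7% and 28.5% of all genes tested, and 8 were lowest in tumour 2, against 19.7% of all genes tested. All 11 were higher in tumour 4 than in tumour 2, against 50.4% of all genes tested. Of the 5 enzymes that lead to palmitate 4 were highest in tumour 4, and of the 6 that lengthen or desaturate fatty acids 5 were highest in tumour 3 and all 6 lowest in tumour 2. The grouping by step was made after the values had been seen.

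The enzymes that supply acetyl-CoA had the most one-sided pattern. Acss2, the cytosolic synthetase that makes acetyl-CoA from acetate (Entrez gene 60525, chromosome 2, 155518043 to 155562743, GRCm38), had 11.3, 10.01, 13.7 and 53.6 CPM in tumours 1 to 4. Tumour 4 stood at 5.36-fold the level of tumour 2, while the other 3 tumours lay close together, and 92.0% of all genes tested had a smaller spread. Acly, which makes acetyl-CoA from citrate, had 341.2, 459.7, 342.4 and 1018 CPM, a spread of 2.98-fold with tumour 4 again apart. The CPM ratio of Acly to Acss2 was 19.0 in tumour 4 and 25.05 to 45.9 in the others, so Acss2 stood out in tumour 4 by more than Acly did. Acaca, the carboxylase that commits acetyl-CoA to fatty acids, had 64.4, 100.3, 115.6 and 165.8 CPM. Me1, the malic enzyme that supplies NADPH, was highest in tumour 4 at 207.4 CPM and lowest in tumour 3 at 126.9 CPM, the 1 fatty acid enzyme of 11 lowest there, against 27.7% of all genes tested. Fasn, the synthase that builds palmitate, went against these 4 genes with 426.6, 324.8, 720.4 and 461.6 CPM, and tumour 3 alone stood high. The CPM ratio of Fasn to Acly was therefore 2.10 in tumour 3 and 0.453 in tumour 4.

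Among the enzymes that modify palmitate, the pair of delta-9 desaturases parted company. Scd1 had 1320, 1020, 1657 and 2635 CPM in tumours 1 to 4 and was highest in tumour 4. Scd2 had 939.1, 597.0, 1487 and 916.8 CPM and was highest in tumour 3. The CPM ratio of Scd1 to Scd2 was 2.87 in tumour 4, against 1.11 in tumour 3, with 1.41 and 1.71 in tumours 1 and 2. The 2 genes are close relatives and reads shared between them could have been split by the counting, which is not described in the sources used here. The desaturases of polyunsaturated fatty acids had the widest spread of this step. Fads1 (chromosome 19, 10182877 to 10196874, GRCm38) had 53.8, 35.8, 146.5 and 95.3 CPM, a spread of 4.09-fold. Its neighbour Fads2 had 99.6, 69.2, 216.4 and 122.6 CPM, a spread of 3.13-fold with the same order of tumours. The elongases Elovl5 and Elovl6 were highest in tumour 3 as well, at 84.4 and 103.3 CPM. Elovl6, which acts on palmitate, was low in both tumour 2 (45.2 CPM) and tumour 4 (47.4 CPM), whereas Elovl5 had 64.0 CPM in tumour 4.

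The regulators differed from gene to gene, with 3 of 5 highest in tumour 3, 1 in tumour 1 and 1 in tumour 2, against 29.7%, 22.9% and 18.9% of all genes tested. Srebf1 had 791.8, 394.0, 454.4 and 479.5 CPM, and its highest level was in tumour 1, where none of the 27 enzymes of the 2 arms was highest. The count does not part its transcripts for SREBP-1a and SREBP-1c. Srebf2 had 67.7, 73.9, 96.6 and 63.7 CPM, with tumour 3 highest and a spread of 1.52-fold. Scap, highest in tumour 2, was the flattest member at 105 ± 10.9 CPM (SD, n = 4) and a spread of 1.27-fold, and 18.6% of its exon bases overlap a gene on the opposite strand. Insig1, itself a classical SREBP target and part of the feedback on Scap, had 13.7, 8.74, 35.7 and 12.8 CPM. Tumour 3 stood alone there, at 4.09-fold the level of tumour 2. Stard4, a cytosolic sterol carrier, had 24.1, 19.8, 45.7 and 37.6 CPM and thus the split of tumours 3 and 4 from tumours 1 and 2 seen for most sterol enzymes.

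No member passed the test of spread between the tumours. In this test, an edgeR fit with a common mean for the 4 tumours in which a gene's deviance is judged at the dispersion of genes of like expression, 0 of 32 members passed at an adjusted p of 0.05, against 3.63% of all genes tested. At an unadjusted p of 0.05 it was 2 of 32, or 6.25%, against 8.74% of all genes tested. DESeq2's rule for dispersion outliers marked 0 of 32, against 0.576% of all genes. The 2 at the unadjusted level were both in the fatty acid arm, Acss2 (edgeR adjusted p = 0.0855) and Fads1 (edgeR adjusted p = 0.281). Without tumour 3 Acss2 did pass (edgeR adjusted p = 0.0263), and without tumour 4 its edgeR adjusted p was 1. Of the sterol enzymes Hmgcs1 came nearest (edgeR adjusted p = 0.603). The biological coefficient of variation over all genes was 0.411. The test judges 1 gene at a time and does not bear on whether the members moved together.

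**Figure D3:**
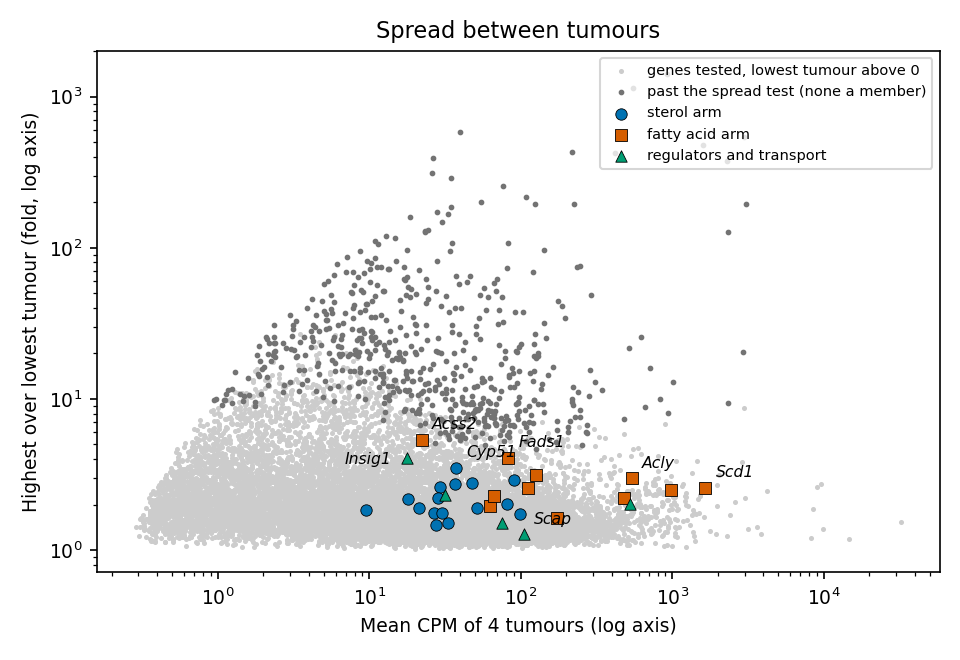
Highest over lowest tumour (fold, log axis) against mean CPM (log axis) for all genes tested with a count in every tumour (light grey), genes past the test of spread (dark grey) and the members of the sterol arm, the fatty acid arm and the regulators. All members lie between 1.27-fold (Scap) and 5.36-fold (Acss2), and none is among the genes past the test.

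The order of the arms by spread rested on tumour 4. Over the 4 tumours the median spread of the sterol arm was 1.97-fold (1.47-fold to 3.50-fold), the median of the fatty acid arm was 2.57-fold (1.63-fold to 5.36-fold), and the median of all genes tested was 1.73-fold. Without tumour 4 the medians were 1.97-fold for the sterol arm and 1.96-fold for the fatty acid arm. More than 2-fold lay between the highest and the lowest tumour for 8 of 16 sterol enzymes and 9 of 11 fatty acid enzymes, against 37.0% of all genes tested. To compare the arms by tumour, a score was taken as the mean over an arm's genes of log2 CPM minus the gene's own mean over the tumours. The sterol arm scored -0.41, -0.25, 0.50 and 0.16 in tumours 1 to 4, and the fatty acid arm scored -0.23, -0.49, 0.31 and 0.41. Both were above 0 in tumours 3 and 4 and below 0 in tumours 1 and 2, where the score over all genes tested was between -0.01 and 0.02. The sterol score minus the fatty acid score was -0.18, 0.24, 0.19 and -0.25 in tumours 1 to 4. The SD among the genes of an arm ran from 0.24 to 0.32 for sterol genes and from 0.29 to 0.59 for fatty acid genes over the tumours, and the difference between the arms was not tested. With medians over the genes it was -0.24, 0.19, -0.03 and -0.09 in tumours 1 to 4. By the steps grouped after the values were seen, the 5 enzymes leading to palmitate scored -0.09 in tumour 3 and 0.73 in tumour 4, and the 6 elongases and desaturases scored 0.64 in tumour 3 and 0.14 in tumour 4.

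**Figure D4:**
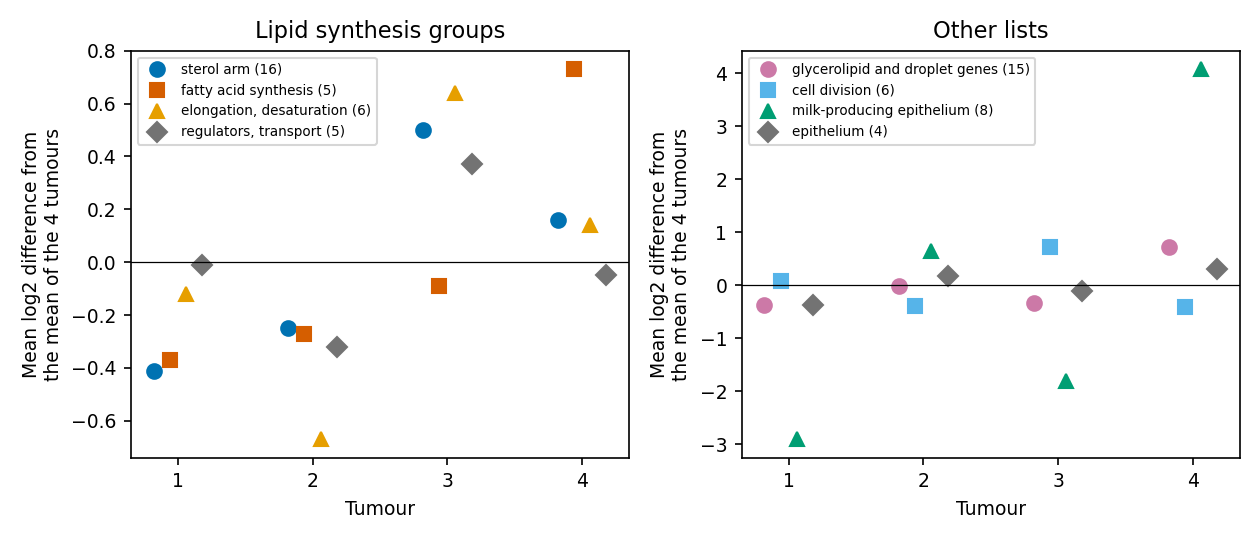
Mean log2 difference from the mean of the 4 tumours for 4 groups of lipid synthesis genes (left) and 4 other lists (right, wider axis), 1 point per tumour and group with the number of genes in brackets; points are set apart sideways for legibility. The sterol arm peaks in tumour 3 at 0.50 and the enzymes leading to palmitate peak in tumour 4 at 0.73, while the milk-producing epithelium list reaches 4.08 in tumour 4.

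Promoters of the members are shown because many of the genes had a like order of tumours. The 150 bases before the RefSeq start site (GRCm38.p6) are printed 5′ to 3′ on the gene's strand for the 5 sterol enzymes with the widest spread, 4 fatty acid enzymes and Insig1. Capitals mark the box CCAAT, read on the other strand as ATTGG, to which the SREBP partner NF-Y binds, and the core CACNCCAC of the sterol regulatory element on either strand. The first 5 are sterol enzymes.
Cyp51, chr5:4104698-4104847, minus strand: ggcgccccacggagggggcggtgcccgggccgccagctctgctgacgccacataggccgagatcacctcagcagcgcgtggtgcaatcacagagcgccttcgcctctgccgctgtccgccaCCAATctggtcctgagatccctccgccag
Hmgcs1, chr13:119690201-119690350, plus strand: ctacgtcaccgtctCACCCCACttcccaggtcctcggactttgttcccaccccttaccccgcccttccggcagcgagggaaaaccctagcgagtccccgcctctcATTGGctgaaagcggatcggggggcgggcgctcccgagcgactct
Idi1, chr13:8885456-8885605, plus strand: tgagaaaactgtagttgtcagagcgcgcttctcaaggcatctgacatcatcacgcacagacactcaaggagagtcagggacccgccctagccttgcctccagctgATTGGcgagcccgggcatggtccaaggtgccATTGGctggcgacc
Msmo1, chr8:64733579-64733728, minus strand: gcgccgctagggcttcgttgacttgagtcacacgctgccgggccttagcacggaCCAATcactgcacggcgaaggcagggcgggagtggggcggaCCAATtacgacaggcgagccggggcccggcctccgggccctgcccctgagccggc
Acat2, chr17:12960726-12960875, minus strand: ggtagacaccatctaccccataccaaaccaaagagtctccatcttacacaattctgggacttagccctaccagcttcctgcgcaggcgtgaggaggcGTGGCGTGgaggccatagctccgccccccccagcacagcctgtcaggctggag
The next 4 are fatty acid enzymes, and the last is the regulator Insig1. These 4 were not taken by spread, because Acaca and Elovl6 have a wider spread than Fasn and are not printed.
Acss2, chr2:155517893-155518042, plus strand: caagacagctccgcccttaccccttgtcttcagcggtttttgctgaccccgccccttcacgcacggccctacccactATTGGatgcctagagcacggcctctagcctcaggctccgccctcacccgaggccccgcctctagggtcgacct
Acly, chr11:100528001-100528150, minus strand: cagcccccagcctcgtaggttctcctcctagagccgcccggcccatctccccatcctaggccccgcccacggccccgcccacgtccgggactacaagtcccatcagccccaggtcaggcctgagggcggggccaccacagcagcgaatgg
Fasn, chr11:120824548-120824697, minus strand: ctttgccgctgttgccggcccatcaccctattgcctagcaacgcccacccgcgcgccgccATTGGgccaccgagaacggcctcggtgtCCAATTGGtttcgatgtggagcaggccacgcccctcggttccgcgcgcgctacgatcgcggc
Fads2, chr19:10101504-10101653, minus strand: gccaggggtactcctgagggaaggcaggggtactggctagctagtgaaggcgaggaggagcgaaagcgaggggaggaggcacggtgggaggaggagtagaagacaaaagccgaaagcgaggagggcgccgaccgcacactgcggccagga
Insig1, chr5:28071262-28071411, plus strand: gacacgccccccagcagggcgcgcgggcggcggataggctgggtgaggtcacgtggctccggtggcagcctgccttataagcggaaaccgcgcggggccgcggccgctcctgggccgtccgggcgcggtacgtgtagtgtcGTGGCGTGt

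The RefSeq table held promoters, from 250 bases before to 50 after the start site, for 25 of the 32 members. A gene with several start sites was counted if any of them held the motif, and both strands were searched. The CCAAT box was found for 12 of 13 sterol enzymes, 5 of 8 fatty acid enzymes and 3 of 4 regulators, and counted by promoter in 21 of 32 member promoters (65.6%), against 37.4% of all 32851 promoters. The printed Idi1 and Msmo1 promoters hold 2 boxes each, the Fasn promoter holds 3, of which 2 overlap in CCAATTGG, and the Acat2, Acly, Fads2 and Insig1 stretches hold none. Acaca and Elovl6, which are not printed, had no CCAAT box in their windows. The sterol regulatory element core was found for 2 of 13 sterol enzymes (Hmgcs1 and Acat2), 0 of 8 fatty acid enzymes and 1 of 4 regulators (Insig1), and by promoter in 9.38% of member promoters, against 6.24% of all promoters. The GC box GGGCGG was found for 12 of 13, 4 of 8 and 4 of 4, and by promoter in 71.9% of member promoters, against 35.7% of all promoters and 59.5% of those of genes tested. The E-box CACGTG was found for 3 of 13, 1 of 8 and 2 of 4, and by promoter in 21.9% of member promoters, against 7.15% of all promoters and 9.62% of those of genes tested. A missing match says only that these letters were not found in these windows.

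Other genes of the same pathways were taken from lists. None of 19 further sterol genes, which cover the remaining enzymes, the SREBP proteases, efflux and lysosomal transport, passed the edgeR test of spread (0 of 19, against 3.63% of all genes tested), and their median spread was 1.77-fold. The highest mean CPM, which is not corrected for length, was that of the lysosomal sterol carrier Npc2 with 205.3, 279.0, 233.2 and 241.1 CPM. The widest was the sterol reductase Tm7sf2 with 2.24, 3.27, 10.3 and 4.47 CPM, once more highest in tumour 3. Of 23 further fatty acid genes 19 passed the count filter and 2 of them the test, against 3.63% of all genes tested. Thrsp, a factor that promotes lipogenesis in liver and mammary gland, had 41.7, 87.6, 2.75 and 142.6 CPM (edgeR adjusted p = 3.95e-08, and 0.366 without tumour 3). Its lowest tumour was thus tumour 3, the tumour in which Fasn was highest. Acsl1, which activates long-chain fatty acids, had 19.9, 22.6, 7.16 and 120.7 CPM (edgeR adjusted p = 1.33e-05, and 1 without tumour 4). The highest mean CPM of that list, not corrected for length, was that of Acsl4, with 397.4, 725.8, 503.8 and 1032 CPM, which did not pass.

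Genes of triglyceride assembly and the milk fat globule had a wider median spread than either arm. Of 15 tested 2 passed, against 3.63% of all genes tested, and the median was 3.23-fold. Btn1a1, the butyrophilin of the milk fat globule, had 5.92, 15.5, 47.3 and 410.1 CPM (edgeR adjusted p = 1.12e-15). Fabp3, a fatty acid binding protein of the lactating gland, had 0.448, 2.75, 1.91 and 38.5 CPM (edgeR adjusted p = 2.77e-07, and 0.65 without tumour 4). Both were highest in tumour 4, as was Xdh, named for the highest mean CPM of the list, with 303.7, 670.6, 137.4 and 799.4 CPM, which did not pass (edgeR adjusted p = 0.0815). The list scored -0.37, -0.02, -0.33 and 0.72 in tumours 1 to 4, so that tumour 3 was low here and high in both synthesis arms.

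Markers of other cells and states had their highest tumour in common with some of these values. The 8 genes of milk-producing epithelium summed to 316, 6075, 2990 and 32837 CPM in tumours 1 to 4. All 8 passed the edgeR test of spread, against 3.63% of all genes tested. Their high tumour 4 is also that of Acss2, Acly and Scd1. Acly was next highest in tumour 2, as was the milk sum, at 459.7 CPM. Its levels in tumours 1 and 3 were nearly equal, at 341.2 and 342.4 CPM, unlike the milk sums. Acss2 and Scd1 instead were lowest in tumour 2, where the milk sum was above that of tumours 1 and 3. The casein Csn3 had the highest mean CPM of that list, with 39.4, 3598, 941.5 and 7679 CPM, and Glycam1 the widest spread, with 29.4, 384.7, 2.33 and 3262 CPM. The 6 cell division genes summed to 1097, 750.7, 1689 and 766.7 CPM with 0 of 6 past the test. Their high tumour 3 is also that of the sterol arm, and both scored below 0 in tumour 2. In tumours 1 and 4 the signs were opposite, with scores of 0.08 and -0.41 for cell division and -0.41 and 0.16 for the sterol arm. The 4 epithelial genes summed to 2283, 3430, 2983 and 3504 CPM, with 0 of 4 past the test. The part of these in the lipid gene levels was not tested. The 10 adipocyte genes summed to 66.4, 140.9, 145.3 and 126.4 CPM, with 2 of 5 tested past the test, against 3.63% of all genes tested. The 2 were Fabp4, with 15.1, 25.9, 91.2 and 7.94 CPM (edgeR adjusted p = 0.000671), and Cfd, with 0.354, 8.30, 0.366 and 0.440 CPM (edgeR adjusted p = 5.74e-05). Fabp4 was the only gene of the list highest in tumour 3, where both arms scored above 0. Cfd was highest in tumour 2, where both arms scored below 0. The 5 tested genes of the list scored -0.84, 1.11, 0.09 and -0.36 in tumours 1 to 4. The fat cell hormone Adipoq had 0.236, 3.73, 0.183 and 0.269 CPM and was also highest in tumour 2, as were Plin1, Cidec, Lep, Retn and Plin4. Lipe and Pnpla2 were highest in tumour 4. The part of adipocytes in the lipid gene levels was not tested. The sebaceous genes Awat1, Fa2h and Elovl3 had 0 counts in every tumour, which allows up to 0.0868 CPM, and the 6 sebaceous genes summed to 74.6, 55.9, 61.4 and 37.8 CPM. Most of that sum was Soat1, with 72.4, 52.7, 60.1 and 34.1 CPM. Awat2 had 2.05, 3.18, 1.07 and 3.66 CPM and was highest in tumour 4, and neither Soat1 nor Awat2 passed the test. The leukocyte, fibroblast and endothelial lists had 0 genes past the test.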

How the data were processed

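Per the labels' protocols, poly-A RNA of 4 mammary gland tumours was fragmented, copied by random priming and sequenced as paired reads. The deposited values are raw counts per gene in whole numbers, without normalization by the authors. FastQC and the builds GRCm38 and mm10 are named in the submitters' processing notes; the aligner, counter, annotation and strand setting were not given in the sources used here. Columns were matched to tumours by number, and 0 columns were left unused.

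Entrez gene rows were named from RefSeq GRCm38.p6 (24480 of 28440 rows matched, with 97.86% of counts), and coordinates are from that table. Members and lists were chosen with earlier results of these data known. Genes low in any tumour were removed with filterByExpr of edgeR 4.0.16, run in R 4.3.3, and libraries were scaled by TMM. Run as 1 group, the filter required a count of 10 at the median library size in every tumour, and 15 in total. A gene high in 1 tumour alone could thus be left out of the test and of the shares of all genes tested. With 1 group there is no contrast for a quasi-likelihood test, so a negative binomial model with 1 common mean was fitted per gene with the trended dispersion, the deviance was judged by chi-square, and p was adjusted by Benjamini-Hochberg over all 15808 genes (threshold 0.05). This p describes the spread between these 4 tumours, which may be partly technical. Log2 CPM used a prior count of 2. Exon lengths are unions of GENCODE M21 basic exons. The 32 members are all accounted for; of the 3 other pathway lists, genes past the test, that with the highest mean CPM and the widest are named, and marker genes were picked after their values were seen. Alternatives were RLE scaling, library size alone, no filter, a mean of at least 5 CPM, a common dispersion, Holm adjustment, DESeq2 1.42.0 dispersion outliers, prior counts of 0.5 and 5, medians over genes and leaving out each tumour.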

Additional observations from a re-analysis of the deposited data

Results flagged for a closer look

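Of 44 values screened (members, group scores and the named genes of the other lists), 4 had 1 tumour far from the other 3: the gap to the nearest tumour, as a share of the range, was past Dixon's 95% critical value. Chance alone flags about 1 in 20 of values that were not chosen for their spread. That rate does not hold for the genes of the other lists named for passing the test of spread or for the widest spread. Acss2 was the 1 member among them, with tumour 4 at 53.6 CPM apart from 10.01 to 13.7 CPM elsewhere (gap 0.916 of the range). Acly came close with 0.825. The others were Acsl1 (0.864), Btn1a1 (0.898) and Fabp3 (0.94), all with tumour 4 apart and all named because they passed the test of spread.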

How the results depend on the processing

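No member passed the test of spread with RLE factors, with library size alone, without the filter or at mean CPM of 5 or more. None passed with a common dispersion, with Holm adjustment or by DESeq2's rule. Leaving out each tumour gave 0 to 1 members past the edgeR test, and 0 to 1 in the fatty acid arm, the 1 being Acss2 without tumour 3, whose edgeR adjusted p otherwise ran from 0.0855 to 1 over these alternatives. The median spread ran from 1.63-fold to 1.97-fold for the sterol arm and from 1.77-fold to 2.49-fold for the fatty acid arm with 1 tumour left out, both lowest without tumour 3, where the median of all genes was 1.52-fold; fewer tumours narrow such a range by construction. Without tumour 4 the medians were 1.97-fold for the sterol arm and 1.96-fold for the fatty acid arm, so their order was lost. The highest tumour was the same for 32 of 32 members under RLE scaling and for 31 of 32 with library size alone, which shifted the median of all genes in tumour 3 by 0.059 on the log2 scale. Of the non-members, DESeq2's rule did not mark Thrsp and Acsl1 and marked Btn1a1 and Fabp3. With another tumour left out, the sterol minus fatty acid score ran from -0.27 to -0.10 in tumour 1, 0.16 to 0.30 in tumour 2, 0.11 to 0.27 in tumour 3 and -0.31 to -0.17 in tumour 4. With medians over the genes it turned to -0.03 in tumour 3 and was -0.09 in tumour 4. No paired analysis was possible because the 4 tumours form 1 group. With 1 library per tumour, no tumour has an error of its own.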

Other observations

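Several further fatty acid genes failed the count filter, which had to be met in every tumour, and had most of their counts in tumour 4. They are named after their values were seen. Olah, the mammary thioesterase that ends chains early to give the medium-chain fatty acids of milk, had 282 counts in tumour 4 and 3, 0 and 2 counts in tumours 1 to 3. The desaturase Scd4 had 206 counts in tumour 4 and 8, 1 and 5 counts in tumours 1 to 3. The elongase Elovl4 had 132 counts in tumour 4 and 12, 8 and 2 counts in tumours 1 to 3. The related Scd3 lacked this pattern, with 158, 75, 140 and 141 counts in tumours 1 to 4.

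Among the long-chain acyl-CoA synthetases the order of tumours differed from gene to gene, as was also picked out after the values were seen. Acsl3 had 53.8, 49.1, 126.1 and 28.2 CPM and was highest in tumour 3, while Acsl1 was lowest there. Acsl5 had 155.3, 128.4, 173.5 and 127.5 CPM. Neither Acsl3 (edgeR adjusted p = 0.241) nor Acsl5 (edgeR adjusted p = 1) passed the test of spread.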
